A study of Mus musculus with 4 samples.

Results

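The genes described here make, sense, take up, store and export cholesterol in the liver, and comprise 28 listed genes of the 37315 in the count files. They were taken by gene symbol, each symbol matched 1 Ensembl identifier, and all 28 passed the filter on low counts, with raw counts of 467 or more in every library. They fall into 4 regulators (Srebf2, Scap, Insig1, Insig2), 7 enzymes of the mevalonate arm (Acat2, Hmgcs1, Mvk, Pmvk, Mvd, Idi1, Fdps), 12 enzymes of the squalene and sterol arm (Fdft1, Sqle, Lss, Cyp51, Tm7sf2, Lbr, Msmo1, Nsdhl, Hsd17b7, Ebp, Sc5d, Dhcr7) and 5 genes of sterol transport and storage (Stard4, Soat2, Scarb1, Abcg5, Abcg8). Polyadenylated RNA was sequenced from whole liver of C57BL/6 mice aged 23 weeks. There were 4 libraries, 2 of wild type liver and 2 of liver carrying a synonymous mutation of Foxo1, a change of the coding sequence that leaves the protein sequence the same. The sources used here do not name the exchanged base, the zygosity, sex or feeding state of the mice. Nothing in the labels states that libraries of 1 group came from different animals, so the p-values reflect only the spread among these libraries, part of which could be technical.

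Hepatocytes build cholesterol from acetyl-CoA through mevalonate, isoprenoids, squalene and lanosterol. SREBP-2, the product of Srebf2, is held in the endoplasmic reticulum with its escort Scap while sterols bind Scap or the Insig proteins. When sterols run low it moves to the Golgi, is cut, and switches on the genes of the whole route, so that their transcripts are known to rise and fall together with sterol supply and feeding. Excess sterol is esterified by the Soat2 product or exported into bile by the transporter that Abcg5 and Abcg8 form together, which oxysterol-activated LXR receptors induce.

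Promoter sequence was taken from RefSeq (build GRCm38.p6), where 22 of the 28 members had an entry. Fdps, Fdft1, Sqle, Stard4, Soat2 and Scarb1 had none and were not searched. The window was the 250 bases before each annotated start, and 4 motifs were searched on both strands. The sterol response element, bound by SREBP, was searched only as TCACNCCAC (N, any base). Among the 22 members this form was found for Hmgcs1 alone, in 3.45% of member windows and 1.05% of all 32817 windows. Other forms of the element were not searched. The CCAAT box (CCAAT, bound by NF-Y, a partner of SREBP) was in 65.5% of member windows and 33.8% of all windows. The GC box (GGGCGG, bound by Sp1) was in 72.4% against 32.7%, and the E-box CACGTG in 17.2% against 6.02%. A match is a description of these letters and not a mapped binding site.

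The following windows are shown because they belong to members on which the results turn. Hmgcs1 and Mvd had the largest differences between libraries, Mvk had the most CCAAT boxes in a window, Insig1 is the sterol-responsive regulator, and the last is the stretch without annotated exons between the first exon of Abcg5 and the nearest upstream exon of Abcg8, its neighbour on the opposite strand. Each is read 5′ to 3′ in the direction of the named gene and was trimmed before any exon of GENCODE release M21. Capitals mark CCAAT boxes in either orientation and, in Hmgcs1, the sterol response element TCACCCCAC, which begins 137 bases before the start.
Hmgcs1 (chr13:119690101-119690350, plus strand): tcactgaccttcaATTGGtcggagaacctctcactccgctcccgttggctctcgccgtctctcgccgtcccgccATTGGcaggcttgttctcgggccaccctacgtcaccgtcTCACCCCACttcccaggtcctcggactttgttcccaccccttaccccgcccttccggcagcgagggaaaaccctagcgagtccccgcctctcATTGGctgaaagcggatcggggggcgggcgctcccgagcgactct
Mvd (chr8:122443423-122443672, minus strand): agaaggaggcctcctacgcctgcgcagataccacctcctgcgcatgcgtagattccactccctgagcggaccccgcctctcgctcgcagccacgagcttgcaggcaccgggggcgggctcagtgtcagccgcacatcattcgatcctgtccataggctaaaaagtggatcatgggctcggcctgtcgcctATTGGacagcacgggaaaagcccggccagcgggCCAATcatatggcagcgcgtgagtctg
Mvk (chr5:114444061-114444268, plus strand): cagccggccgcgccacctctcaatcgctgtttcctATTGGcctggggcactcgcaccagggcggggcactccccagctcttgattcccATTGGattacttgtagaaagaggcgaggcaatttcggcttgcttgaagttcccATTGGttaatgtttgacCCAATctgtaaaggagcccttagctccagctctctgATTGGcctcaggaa
Insig1 (chr5:28071162-28071362, plus strand): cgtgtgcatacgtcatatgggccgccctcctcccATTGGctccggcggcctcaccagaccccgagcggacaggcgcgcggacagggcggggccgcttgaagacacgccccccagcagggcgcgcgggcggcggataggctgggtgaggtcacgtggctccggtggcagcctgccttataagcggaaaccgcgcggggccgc
Abcg5 and Abcg8 (chr17:84683012-84683120, minus strand): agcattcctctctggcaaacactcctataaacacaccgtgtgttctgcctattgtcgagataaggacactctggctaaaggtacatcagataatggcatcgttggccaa

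The deposited counts summed to between 73551737 and 95908652 per library. Levels are given as normalised CPM, counts scaled to a common library total with factors from the trimmed mean of M values (TMM). Group means are followed by the SD (n = 2 libraries). Foxo1 was at 44.0 and 54.8 CPM in the wild type libraries and at 33.6 and 53.4 CPM in the mutant libraries, which overlap, and its transcript level cannot check a label for a synonymous change. Hepatocyte markers summed to 110244 to 128766 CPM in the 4 libraries, and 0 of the 12 differed between groups (edgeR, adjusted p below 0.05; 0 also at an unadjusted p below 0.05). Of 14 Kupffer cell markers all 14 were higher in mutant liver and 7 passed the threshold, with summed levels of 368 to 392 CPM in wild type and 563 to 634 CPM in mutant libraries. In whole tissue, more cells of a type and more RNA per cell cannot be told apart.

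Per kilobase of annotated exon, the scale on which levels of different genes can be compared, Insig1 and Hmgcs1 were the most abundant members, at means over the 4 libraries of 121 and 118 normalised CPM per kilobase. Sc5d, which introduces a double bond late in the sterol arm, followed at 102, and Idi1, the isopentenyl diphosphate isomerase, at 75.1. At the other end were the regulator Srebf2 at 6.59 to 7.27 over the libraries, lanosterol synthase (Lss) at a mean of 6.69 and Lbr, a nuclear envelope protein with sterol reductase activity, at 1.29. Tm7sf2, which catalyses the same reduction as Lbr, stood at 20.4. The span from Insig1 to Lbr was 93.5-fold. Of the 27 neighbouring pairs in this order only 3 had ranges over the libraries that did not overlap (Scap above Mvk, Mvk above Srebf2, Lss above Lbr). Overlap does not show equal levels, because neighbouring genes can shift together between libraries. Fdft1, at 29.1 to 51.6, was above Pmvk, at 20.6 to 32.8, in every library. How many pairs kept their order in every library was not counted. The exon length joins all annotated transcripts of a gene, which lowers the value of genes with rare long forms, and Lss had the longest, at 10787 bases.

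**Figure D1:**
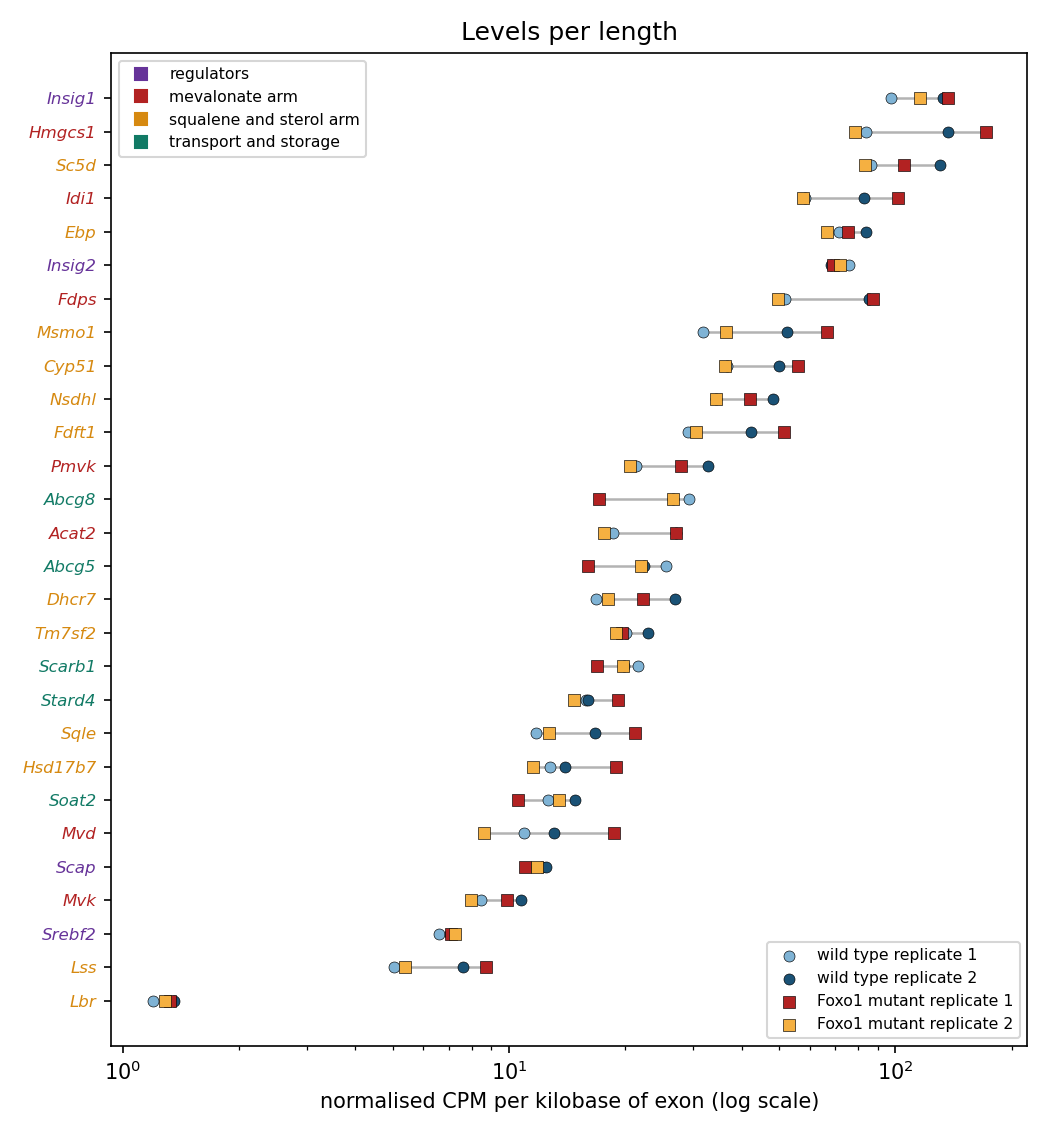
Level of each member in each library, as normalised CPM per kilobase of exon on a log axis, ordered by the mean over the 4 libraries. Circles are wild type, squares are mutant, the grey line joins the lowest and highest library, and the colour of a gene name gives its role. Insig1 and Hmgcs1 lie at the top and Lbr at the bottom, and the spread over libraries is wide for Hmgcs1 and narrow for Srebf2.

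Comparing the mutant libraries with the wild type libraries asks whether expression of these genes differed with the Foxo1 mutation. Of the 28 members 0 passed an adjusted p below 0.05 (edgeR quasi-likelihood test, Benjamini-Hochberg adjustment over 14657 genes), where 0.341% of all genes tested did. At an unadjusted p below 0.05 there were also 0 members, against 6.19% of all genes. DESeq2 and limma-voom likewise gave 0 members at an adjusted p below 0.05 (0.764% and 0.0478% of all genes). At an unadjusted p below 0.05 DESeq2 had Abcg5 and Abcg8, and limma-voom had Abcg5. The share of all genes at that unadjusted threshold was not computed for these methods, so these genes are not shown to stand out. The log2 fold change, mutant over wild type, was positive in 14 members and negative in 14, with a median of −0.01, beside a median of −0.0013 over all genes tested. It ranged from −0.35 in Abcg8 to 0.29 in Msmo1. In the 19 enzymes 11 were positive and 8 negative, and the median was 0.03.

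The precision of these fold changes differed greatly within the route, so a p that missed the threshold does not show equal levels. The SE was 0.089 for Srebf2 and 0.62 for Hmgcs1, and the 95% confidence interval ran from −0.12 to 0.27 in the first and from −2.19 to 2.55 in the second. Both mutant libraries lay above both wild type libraries in 1 member (3.57%, against 17.0% of all genes), and both lay below in 5 members (17.9%, against 17.0%). The share below is near that of all genes.

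**Figure D2:**
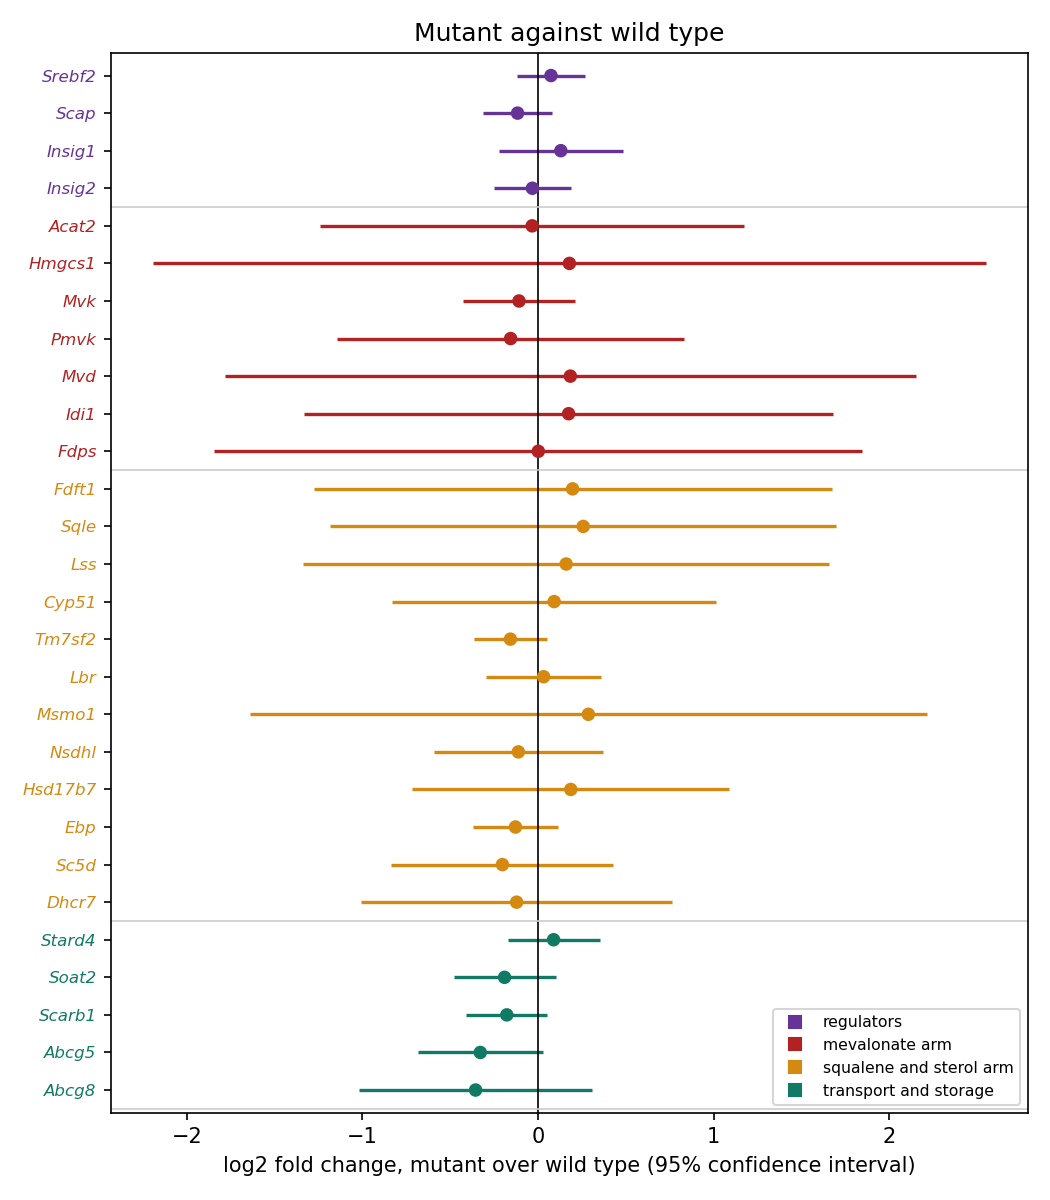
Log2 fold change of each member, mutant over wild type (point), with its 95% confidence interval (line) from the edgeR fit, coloured by role. All 28 intervals include 0. They are narrow for the regulators and for Tm7sf2, and wide for most enzymes, with Hmgcs1 from −2.19 to 2.55.

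The regulators were nearly level across the libraries, with the exception of Insig1. Srebf2, which encodes the transcription factor itself (chr15:82147181-82205379), was at 47.4 and 50.6 CPM in wild type and at 51.0 and 52.2 CPM in mutant liver. It was the member in which the mutant libraries lay above, by a margin smaller than the gap between the wild type libraries (log2 fold change 0.07). Scap, the escort protein that senses cholesterol, was at 90.8 and 92.8 CPM in wild type and at 81.7 and 87.7 CPM in mutant liver (−0.12, SE 0.090). Insig2, the retention protein with a liver-enriched transcript form, was at 264 and 236 CPM in wild type and at 240 and 250 CPM in mutant liver. The groups overlapped, and the log2 fold change of −0.03 had an interval of −0.25 to 0.19. Insig1, the retention protein that is itself induced by SREBP-2, was at 302 and 412 CPM in wild type and at 423 and 359 CPM in mutant liver. Its lowest library was wild type replicate 1 and its highest mutant replicate 1, and the means were 357 ± 77.3 and 391 ± 45.5 CPM (log2 fold change 0.13, SE 0.15).

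In the mevalonate arm the libraries of each group stood far apart. Hmgcs1, cytosolic HMG-CoA synthase (ENSMUSG00000093930, chr13:119690379-119708260 on mm10), was at 386 and 629 CPM in wild type replicates 1 and 2 and at 788 and 361 CPM in mutant replicates 1 and 2. The mutant libraries thus held both the highest and the lowest value, 2.18-fold apart, and the wild type libraries lay between them. Idi1 was at 204 and 290 CPM in wild type and at 356 and 202 CPM in mutant liver. Fdps, which makes farnesyl diphosphate, was at 218 and 359 CPM in wild type and at 369 and 209 CPM in mutant liver. The group means of Fdps, 289 ± 99.4 and 289 ± 113 CPM, were almost equal, while its libraries within a group differed 1.64-fold and 1.77-fold. An annotated gene on the same strand, Gm43738, shares 26.7% of the exon length of Fdps and is not a row of the count files.

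Mvd, the decarboxylase that yields isopentenyl diphosphate, was at 20.4 and 24.3 CPM in wild type and at 34.7 and 16.0 CPM in mutant liver. It had the second largest gap between mutant libraries, 2.17-fold, with a smaller gap of 1.19-fold in wild type. Acat2, a cytosolic thiolase that starts the route and has a close paralog, Acat3, was at 47.4 and 68.9 CPM in wild type and at 68.7 and 44.9 CPM in mutant liver. The kinases Mvk and Pmvk, which phosphorylate mevalonate in succession, had the same high and low libraries with wild type replicate 2 on top. Pmvk was at 36.5 and 56.1 CPM in wild type and at 47.8 and 35.3 CPM in mutant liver. Mvk was at 22.7 and 28.8 CPM in wild type and at 26.4 and 21.3 CPM in mutant liver. In all 7 genes mutant replicate 2 was the lowest library.

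In Fdft1, Sqle, Lss, Cyp51 and Msmo1 of the sterol arm wild type replicate 2 and mutant replicate 1 were again the higher libraries. Msmo1, the methylsterol monooxygenase, was at 196 and 322 CPM in wild type and at 408 and 224 CPM in mutant liver, with the largest positive log2 fold change of the members (0.29, SE 0.52, edgeR adjusted p = 1.0). Squalene epoxidase (Sqle) was at 65.1 and 92.5 CPM in wild type and at 118 and 70.5 CPM in mutant liver. Lss, which folds squalene epoxide into lanosterol, was at 54.2 and 82.0 CPM in wild type and at 94.1 and 58.2 CPM in mutant liver. Mutant replicate 1 was highest and wild type replicate 1 lowest in these 3 genes and in Fdft1. Fdft1, squalene synthase, was at 123 and 179 CPM in wild type and at 218 and 129 CPM in mutant liver, and 18.3% of its exon length is overlapped by the opposite-strand gene Ctsb, from which reads cannot be told apart without strand. Cyp51, the lanosterol demethylase, was at 161 and 221 CPM in wild type and at 247 and 160 CPM in mutant liver.

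Wild type replicate 2, not mutant replicate 1, was the highest library of Nsdhl, Ebp, Sc5d and Dhcr7, and also of Tm7sf2 and Lbr. Sc5d was at 421 and 637 CPM in wild type and at 514 and 406 CPM in mutant liver. Dhcr7, the reductase that completes cholesterol from its dehydro precursor, was at 98.0 and 157 CPM in wild type and at 129 and 105 CPM in mutant liver. Both had negative log2 fold changes, −0.20 (SE 0.24) and −0.12 (SE 0.29), and groups that overlapped. Nsdhl, the X-linked dehydrogenase of sterol demethylation, was at 97.7 and 138 CPM in wild type and at 120 and 97.9 CPM in mutant liver. Ebp, the X-linked sterol isomerase, was at 165 and 194 CPM in wild type and at 174 and 154 CPM in mutant liver. Hsd17b7, the ketosteroid reductase of the demethylation complex, differed from these genes in having mutant replicate 1 far above the rest. It was at 65.2 and 71.5 CPM in wild type and at 96.6 and 59.0 CPM in mutant liver.

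The pair of sterol reductases varied least among the enzymes. Lbr was at 5.70 and 6.46 CPM in wild type and at 6.30 and 6.13 CPM in mutant liver. Tm7sf2 was at 88.7 and 101 CPM in wild type and at 86.3 and 83.5 CPM in mutant liver, with both mutant libraries below both wild type libraries (log2 fold change −0.16, SE 0.095, edgeR adjusted p = 0.951). Tm7sf2 shares 12.1% of its exon length with Vps51 on the same strand.

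The enzymes moved together between libraries of the same genotype. Wild type replicate 2 was above wild type replicate 1 in 19 of 19 enzymes, by a median log2 difference of 0.51, beside 0.0054 over all genes tested. Mutant replicate 1 was above mutant replicate 2 in 19 of 19, by a median of 0.63, beside −0.0012 over all genes. A gap of at least 1.5-fold was present in 7 members in wild type and in 11 members in mutant liver, all of them enzymes. That is 25.0% and 39.3% of the members, where 7.17% and 6.84% of all genes had such a gap in the same direction. In the opposite direction there were 0 members in wild type (6.99% of all genes) and 1 in mutant liver, Abcg8 (6.70%). Wild type replicate 2 and mutant replicate 1 held the top 2 values in 18 of the 19 enzymes and in 20 of the 28 members (71.4%), against 17.7% of all genes; Tm7sf2 was the exception among the enzymes, and Insig1 and Stard4 were the others with this order. This order was chosen for description after the values were seen, and no test was made of it.

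The differences within the 2 groups share no library. Across the 28 members they had a Pearson r of 0.735, and across the 14657 genes tested of 0.0072. Each difference was taken in the direction chosen above after the values were seen. Reversing 1 of the 2 would turn the sign of r. The members share the same 4 libraries and scaling factors, and genes are not independent replicates. Within the 19 enzymes alone r was 0.402. The enzymes with the widest gap in mutant liver, Hmgcs1 and Mvd, had gaps of 1.63-fold and 1.19-fold in wild type.

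**Figure D3:**
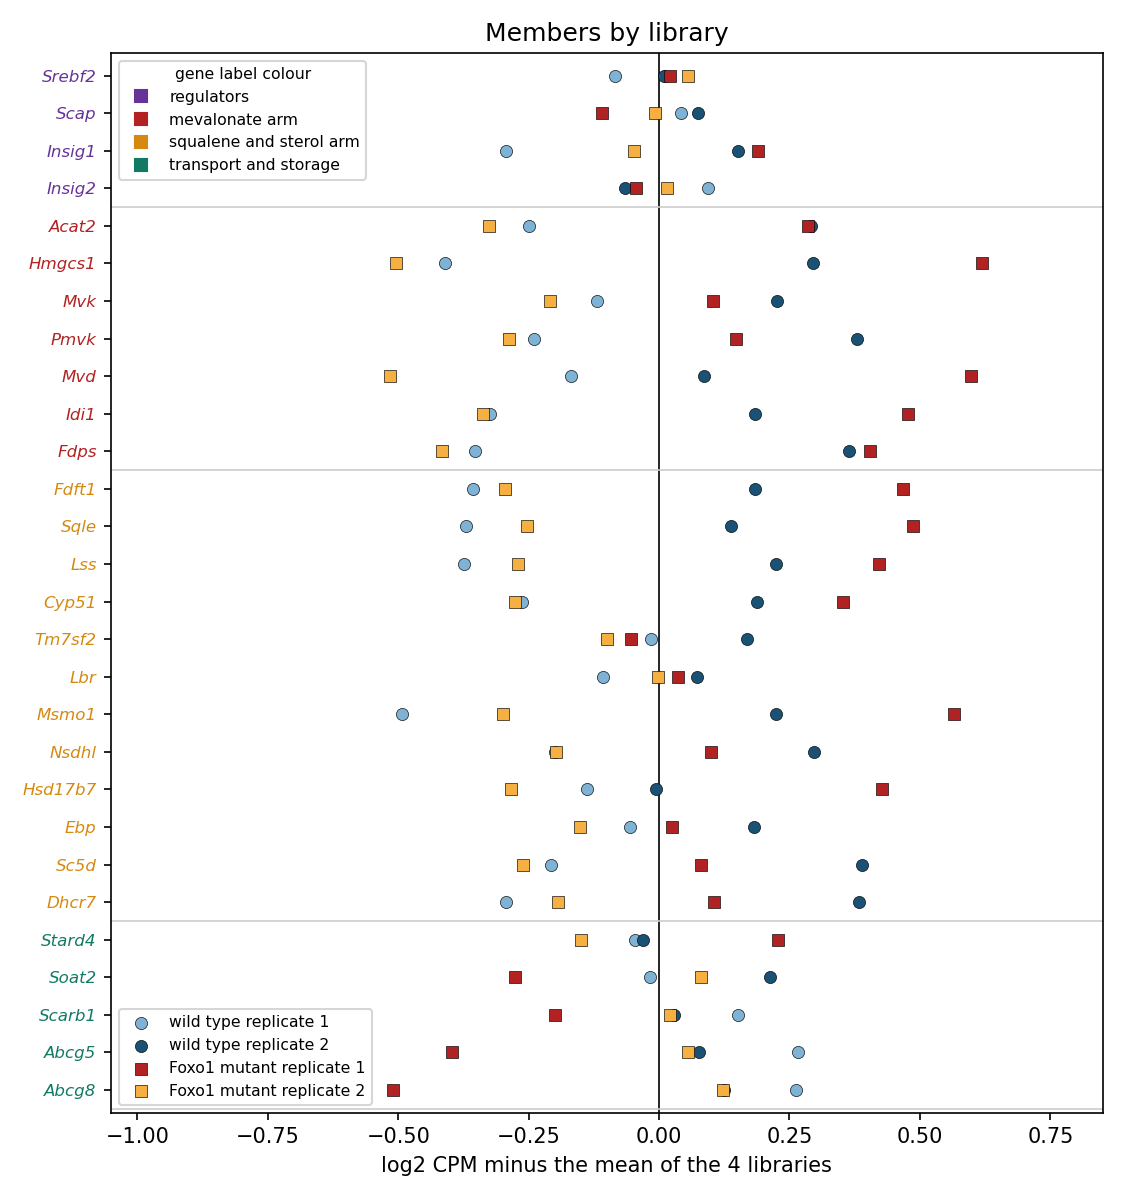
Log2 normalised CPM of each member in each library, minus the mean of the 4 libraries, with members grouped by role. Circles are wild type and squares are mutant. In most enzymes wild type replicate 2 and mutant replicate 1 lie to the right of 0 and the other 2 libraries to the left, whereas mutant replicate 1 lies to the left in Soat2, Scarb1, Abcg5 and Abcg8.

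**Figure D4:**
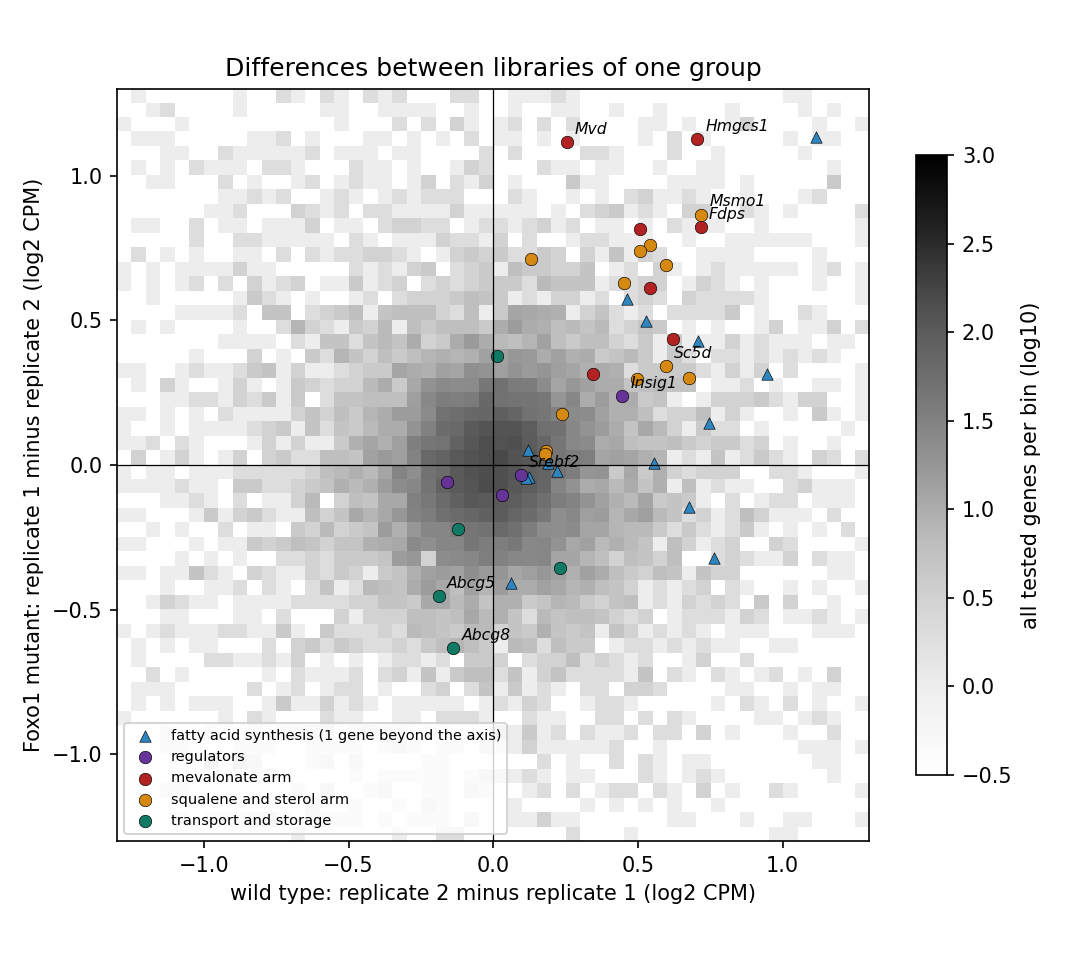
Difference in log2 normalised CPM between the wild type libraries (horizontal axis) and between the mutant libraries (vertical axis) for the members (circles, coloured by role), for genes of fatty acid synthesis (triangles; Pnpla3 lies beyond the axis) and for all 14657 genes tested (grey, number of genes per bin on a log scale). All 19 enzymes lie in the upper right quadrant, and Abcg5 and Abcg8 in the lower left.

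Of the transport and storage genes, all but Stard4 took other orders. Abcg8 was at 110 and 99.5 CPM in wild type and at 64.1 and 99.4 CPM in mutant liver, and Abcg5 at 68.9 and 60.5 CPM in wild type and at 43.5 and 59.6 CPM in mutant liver. In both genes mutant replicate 1 stood below the rest and mutant replicate 2 lay within 1 CPM of wild type replicate 2, so the groups of Abcg8 were separated by a margin far smaller than the spread. Their log2 fold changes were −0.35 (SE 0.24, edgeR adjusted p = 0.988) and −0.33 (SE 0.15, edgeR adjusted p = 0.873), with 95% confidence intervals of −1.02 to 0.31 and −0.68 to 0.03. Without mutant replicate 1 they were −0.07 and −0.12. Without mutant replicate 2, with the spread taken from the wild type libraries, they were −0.71 (edgeR adjusted p = 0.181) and −0.57 (0.362). The genes overlap, Abcg5 at chr17:84658234-84683011 on the minus strand and Abcg8 at chr17:84676302-84700333 on the plus strand (mm10). Their exons share 82 bases, where reads cannot be assigned by strand.

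Scarb1, the receptor that takes up cholesteryl ester from high density lipoprotein, was at 184 and 169 CPM in wild type and at 144 and 168 CPM in mutant liver. Soat2, the acyltransferase that esterifies cholesterol for storage and lipoprotein export, was at 27.9 and 32.8 CPM in wild type and at 23.4 and 29.9 CPM in mutant liver. In these 2 genes, as in Abcg5, Abcg8 and Scap, mutant replicate 1 was the lowest of the 4 libraries, the library that was highest in 10 of the 19 enzymes. That library was lowest in 17.9% of the members and in 25.2% of all genes. Stard4, a soluble sterol carrier induced by SREBP-2, was at 88.5 and 89.4 CPM in wild type and at 107 and 82.3 CPM in mutant liver, with the wild type libraries close together (88.9 ± 0.604 CPM).

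The direction of the group difference depended on which libraries were compared. With 1 library left out, 1 group held a single library, which was assumed to vary like the other group, so the p-values of these fits rest on the spread within the other group, moderated across genes. In these fits 20 of the 28 members took the opposite sign at least once, among them 17 of the 19 enzymes. The share of all genes tested that did so was not computed, so the count is not shown to be particular to the members. Without mutant replicate 1 only 1 of the 19 enzymes, Lbr, was positive, and without mutant replicate 2 there were 16. Without wild type replicate 1 there were 3 positive enzymes, and without wild type replicate 2 there were 17. The median of the enzymes was −0.27, 0.35, −0.13 and 0.26 in these 4 fits. The 8 members that kept their sign in every fit were Srebf2 (positive), and Scap, Tm7sf2, Ebp, Soat2, Scarb1, Abcg5 and Abcg8 (negative). The members past an adjusted p below 0.05 in edgeR were 0 in each. Mvd was at −0.48 without mutant replicate 1 and at 0.63 without mutant replicate 2, so its sign turned with the mutant library left out. Insig1 was at 0.37 without wild type replicate 2.

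**Figure D5:**
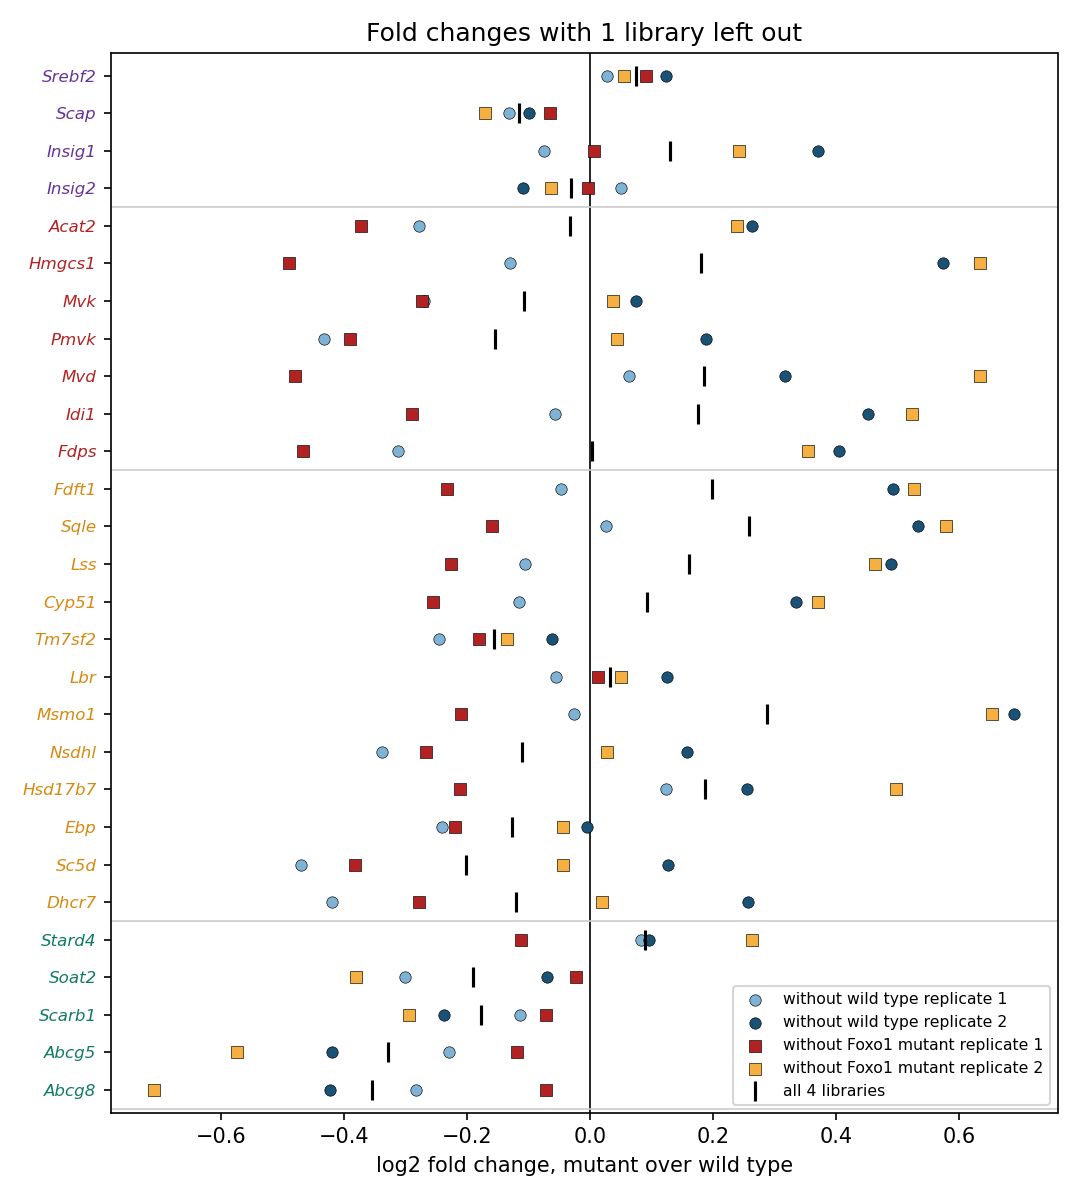
Log2 fold change of each member, mutant over wild type, with all 4 libraries (black tick) and with each library left out in turn (circles, a wild type library left out; squares, a mutant library left out). Most enzymes lie left of 0 without mutant replicate 1 and right of 0 without mutant replicate 2, whereas Abcg5, Abcg8, Scarb1 and Soat2 stay left of 0.

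Genes of the wider pathway showed little of the library pattern of the enzymes. A list of 35 further genes covered SREBP processing, sterol trafficking, isoprenoid branches and oxysterol receptors, and 0 passed the threshold in the edgeR fit, with 1 at an unadjusted p below 0.05. That gene was Pltp, the phospholipid transfer protein (log2 fold change −0.30, edgeR adjusted p = 0.676). The median log2 fold change was −0.03, with 14 positive and 21 negative. The sterol-binding membrane protein Pgrmc1, the most abundant in CPM, was at 961 and 1011 CPM in wild type and at 992 and 922 CPM in mutant liver. The median difference between wild type libraries was −0.01 and that between mutant libraries 0.02, and wild type replicate 2 and mutant replicate 1 held the top 2 values in 6 of 35. Aacs, acetoacetyl-CoA synthetase, named after its values were seen, was the gene with the widest gap between mutant libraries, at 37.2 and 22.9 CPM, but in wild type replicate 1 was the higher, at 40.3 against 31.6 CPM. The LXR receptors Nr1h3 and Nr1h2, which control Abcg5 and Abcg8, had log2 fold changes of −0.05 and −0.08.

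Fatty acid synthesis, which the related factor SREBP-1 directs, had only part of this pattern. All 16 listed genes were highest in wild type replicate 2, with a median log2 difference of 0.54 over wild type replicate 1, close to the 0.51 of the cholesterol enzymes. Between the mutant libraries the median was 0.0058, with 9 of 16 higher in mutant replicate 1, where it was 0.63 with 19 of 19 for the cholesterol enzymes. Scd1, the most abundant of them, was at 4013 and 6733 CPM in wild type and at 2551 and 2309 CPM in mutant liver, and Srebf1 at 151 and 257 CPM in wild type and at 145 and 180 CPM in mutant liver. The list had a median log2 fold change of −0.34, with 0 of 16 past the threshold in edgeR and 3 (Scd1, Elovl6 and Me1) at an unadjusted p below 0.05. Srebf1, Elovl6 and Me1, like Pltp above, were named after their values were seen. The difference between these lists was not tested.

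Markers of cells, lobular zones and the clock were read in the same libraries. The median deviation of the enzymes from the mean of the 4 libraries was −0.25 and 0.22 in wild type replicates 1 and 2 and 0.35 and −0.28 in mutant replicates 1 and 2, on the log2 scale. Hepatocyte markers had medians of −0.09, 0.07, −0.01 and 0.02 in that order, periportal markers, of which Hsd17b6 passed the threshold, 0.05, 0.05, 0.00029 and −0.09, and pericentral markers −0.01, 0.0021, −0.01 and 0.06. The 14 Kupffer cell markers had −0.35, −0.28, 0.20 and 0.46, higher in both mutant libraries. Blood markers, of which Hbb-bt passed the threshold, had −0.51, 0.02, 0.19 and 0.23, and summed to 246 and 284 CPM in wild type and to 304 and 340 CPM in mutant liver. Sinusoidal endothelial markers ranged from −0.03 to 0.04, stellate cell markers from −0.14 to 0.12 and cholangiocyte markers from −0.08 to 0.09. Of 8 markers of intestine and pancreas, Cpa1, Prss2 and Ins2 were at 0 in all libraries and 2 were tested. These 2 were detected in every library, Cela1 at 18.3 to 22.8 CPM and Fabp2 at 18.6 to 29.9 CPM. Clock genes had −0.03, −0.05, 0.06 and 0.09, and Nr1d1, the clock repressor REV-ERB alpha, fell in mutant liver (log2 fold change −0.86, edgeR adjusted p = 0.011), the only 1 of 15 past the threshold. The part of these in the values of the cholesterol genes was not tested.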

How the data were processed

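The deposited files give, for each library, raw counts of reads by Ensembl gene as whole numbers, and nothing in the values points to normalising or pooling by the authors. Per the labels' protocols, RNA was extracted with TRIzol and libraries were made with a TruSeq RNA kit, which does not mark strand, and read as pairs of 150 bp. The submitters' processing notes name TopHat2 2.1.1, HTSeq 0.6.0 and build mm10. For the annotation release, the counting mode and reads with several placements, nothing is stated there. Every row carried an Ensembl mouse gene identifier.

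Counts were fitted over the whole table with edgeR 4.0.16 in R 4.3.3 (filterByExpr with a minimum count of 10, TMM factors of 0.983 to 1.02, robust glmQLFit, glmQLFTest, group as the only term). Each SE was derived from the F statistic, as |log2 fold change| / √F. The 95% intervals used it and the total degrees of freedom, the residual ones plus those gained by moderation across genes. Log2 CPM used a prior count of 2. Alternatives used DESeq2 1.42.0, limma-voom 3.58.1, other scalings and filters, a replicate block and each library left out, keeping the tested genes. The fit was tested on simulated data. All 28 members are named, with Foxo1; of each other list the rule took up to 4 genes past the threshold or else the 2 most expressed, and only some are described. The members and lists were chosen with earlier results of these data known. Positions and exon lengths come from GENCODE M21 on the mm10 build.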

Additional observations from a re-analysis of the deposited data

How the results depend on the processing

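With 2 libraries a group the spread is estimated from few values. Every member had 467 counts or more in each library, and Lbr had the fewest; the shares of depth and spread in the SEs were not tested. The count of members past an adjusted p below 0.05 was 0 under every alternative run. At an adjusted p below 0.1 it was 0 in the edgeR fit of all 4 libraries. With no filter the lowest edgeR adjusted p of a member was 0.086, which is below 0.1. The medians of the members and of the enzymes moved by less than 1 SD between libraries (0.25 and 0.39). That SD comes from the gaps within groups, so leaving out 1 library could hardly move a median further. With 1 library left out the enzyme median ran from −0.27 to 0.35, beside 0.03 with all 4 libraries. With DESeq2, the other scalings, the other filters and edgeR without robust estimation all 28 members kept their sign; with limma-voom and with the replicate block 27 did, Fdps being at −0.016 and −0.011. Over all genes the count past the threshold was 50, against 258 with no filter, 24 with a filter of 1 CPM in 2 libraries, 8 without robust estimation, 111 with the replicate block, 112 with DESeq2, 7 with limma-voom, and 3 to 17 with 1 library left out; the cause was not tested. Same-numbered libraries did not deviate together over all genes (r of −0.0072, which is the r of 0.0072 above with its sign turned). That value cannot exclude a pairing that affects few genes. The block is given here only.

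With 1 library left out the log2 fold change ran from −0.075 to 0.37 in Insig1, −0.11 to 0.051 in Insig2, −0.37 to 0.26 in Acat2, −0.49 to 0.63 in Hmgcs1, −0.27 to 0.074 in Mvk, −0.43 to 0.19 in Pmvk, −0.48 to 0.63 in Mvd, −0.29 to 0.52 in Idi1, −0.47 to 0.40 in Fdps, −0.23 to 0.53 in Fdft1, −0.16 to 0.58 in Sqle, −0.23 to 0.49 in Lss, −0.26 to 0.37 in Cyp51, −0.055 to 0.12 in Lbr, −0.21 to 0.69 in Msmo1, −0.34 to 0.16 in Nsdhl, −0.21 to 0.50 in Hsd17b7, −0.47 to 0.13 in Sc5d, −0.42 to 0.26 in Dhcr7 and −0.11 to 0.26 in Stard4. These ranges include both signs, and the sign of each of these 20 genes rests on single libraries. How many of all genes tested have such ranges was not computed.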
